A study of Mus musculus with 2 samples.

Results

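Mir126a and Mir126b are a pair of mouse microRNA (miRNA) genes that occupy the same bases of chromosome 2 on opposite strands, within the endothelial gene Egfl7. They were chosen by name as that pair, and are 2 of the 2202 miRNA genes listed in the deposited tables. Small RNAs below 30 nucleotides were sequenced from the hearts of 25-day-old B6CASTF1/J males, a first-generation hybrid of C57BL/6J and CAST, as 1 library from each of 2 hearts labelled as biological replicates 2 and 1. There is 1 group, with no treatment and no contrast, so the only comparison between libraries is that between the 2 hearts. Both libraries share 1 donor identifier, although the animals have their own numbers, and if they were not separate animals the spread given below is technical. Another label adds months to the age, and days were used.

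Egfl7 encodes a secreted protein of endothelial cells, the cells that line blood vessels, and miR-126 is among the best known miRNAs of that cell type. In mouse and zebrafish, miR-126a-3p (miR-126-3p in other species) is known to support vascular growth factor signalling and vessel integrity by repressing Spred1 and Pik3r2, which restrain that signalling. The other arm of the same hairpin, miR-126a-5p, is known to repress Dlk1 in endothelial cells. Mir126b is the annotated hairpin of the opposite strand.

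Mir126a (ENSMUSG00000065540.1) lies on the plus strand of mm10 at chr2:26591357-26591429, a hairpin of 73 bases. Mir126b (ENSMUSG00000105799.1) lies on the minus strand at chr2:26591363-26591420, a hairpin of 58 bases that is contained in Mir126a. Of Mir126a, 6 bases precede and 9 bases follow the shared stretch. The sequences below, from RefSeq in build GRCm38.p6, show how the pair is arranged. In the hairpins the capitals mark the mature miRNAs of the RefSeq table, and in the mature miRNAs they mark the seed, bases 2 to 8, by which a miRNA finds its targets. That table holds no entry for miR-126a-5p, so its arm of the Mir126a hairpin is in lower case.
Mir126a hairpin: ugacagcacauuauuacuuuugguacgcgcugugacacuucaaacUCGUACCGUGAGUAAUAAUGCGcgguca
Mir126b hairpin: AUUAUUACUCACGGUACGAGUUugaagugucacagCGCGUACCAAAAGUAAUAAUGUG
mmu-miR-126a-3p: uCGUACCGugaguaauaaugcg
mmu-miR-126b-5p: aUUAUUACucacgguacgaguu
mmu-miR-126b-3p: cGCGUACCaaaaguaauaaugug

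The reverse complement of the Mir126b hairpin was identical to Mir126a at 58 of 58 bases. The 22 bases of miR-126a-3p (chr2:26591402-26591423, plus strand) and the 22 bases of miR-126b-5p (chr2:26591399-26591420, minus strand) overlap at 19 bases of the genome, where they are each other's reverse complement. The 23 bases of miR-126b-3p (chr2:26591363-26591385, minus strand) overlap none of miR-126a-3p, and miR-126a-3p runs 3 bases beyond the Mir126b hairpin. Overlap of miR-126b-3p with miR-126a-5p was not measured, since the RefSeq table has no entry for miR-126a-5p. The seeds of the 3 mature miRNAs printed above differ from one another, and none of these 3 occurred in another gene's mature miRNA among the 1738 mature miRNAs of the RefSeq table. No other annotated miRNA locus holds a run of 20 bases of either hairpin. Folded with RNAfold, the Mir126a hairpin had a minimum free energy of -31.2 kcal/mol with 27 base pairs, and the Mir126b hairpin had -19.3 kcal/mol with 21 base pairs. Over the same 58 bases, the Mir126a strand had -19.4 kcal/mol with 20 base pairs. Cut to equal length, the 2 strands thus differed little in predicted energy and number of base pairs. Whether the pairs fell at the same bases was not compared. Per base, 40.3% of the 1005 hairpins in the table had a more negative energy than Mir126a and 77.4% had one more negative than Mir126b.

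In the annotation, Egfl7 spans 26580014 to 26593120 on the plus strand of chromosome 2, the strand of Mir126a. Of its 19 annotated transcripts, 8 hold Mir126a in an intron, which is intron 7 in 4 of them, intron 6 in 2 and intron 1 in 2. In the first 6 of these it is the same intron of 600 bases (26591064 to 26591663), with 293 bases between the exon before and Mir126a and 234 bases between Mir126a and the exon after. In 1 retained-intron transcript Mir126a lies within exon 4. The remaining 10 transcripts do not span it, and some of these start just downstream, the nearest 5 bases past the last base of Mir126a. Gm20532, a longer gene on the same strand, also spans the locus. The nearest listed miRNA genes are Mir6996, 121238 bases before with 6 counts in replicate 2 and 0 in replicate 1, and Gm24049, 810423 bases after with 0 counts in both. The counts are given per hairpin, so the arms of a hairpin cannot be told apart, and the messenger RNA of Egfl7 was not measured. Mir126a has no miRNA neighbour in a common cluster in this annotation, apart from the gene on its opposite strand.

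**Figure D1:**
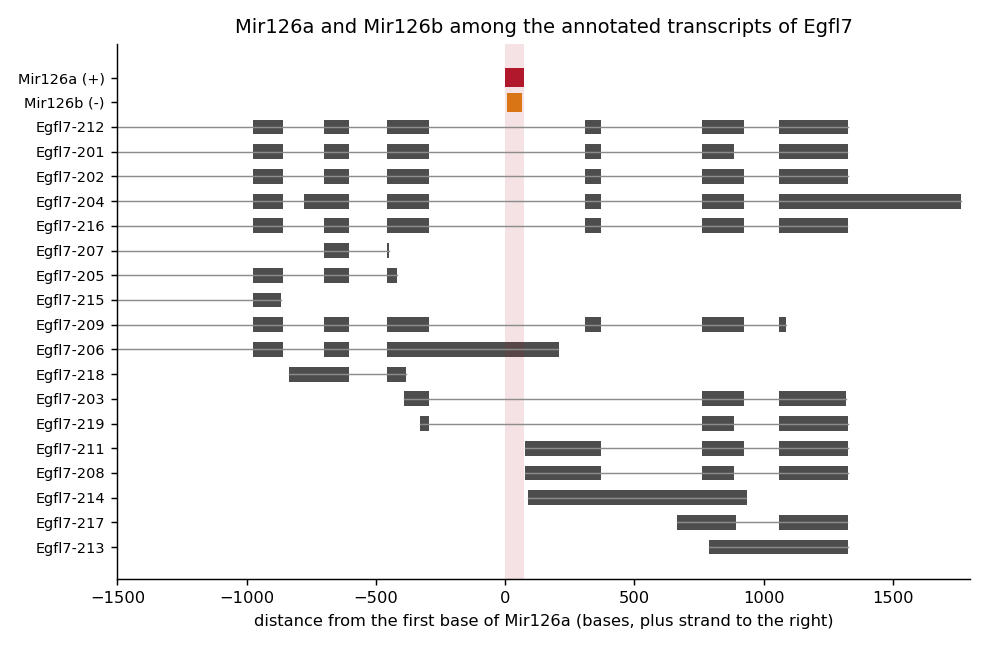
Position of Mir126a (plus strand) and Mir126b (minus strand) among 18 of the 19 annotated Egfl7 transcripts; the transcript left out ends before the window. The x axis is the distance in bases from the first base of Mir126a, boxes are exons and lines introns, and the shaded band is Mir126a, which lies in an intron of 8 transcripts and in an exon of 1 retained-intron transcript.

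Of 14363882 reads in replicate 2, 5229819 (36.4%) fell to a miRNA gene on the gene's strand, and of 13210462 reads in replicate 1, 4930853 (37.3%) did. Reads placed at several loci made up 37.4% in replicate 2 and 41.6% in replicate 1 and are in no gene's count. Levels are own-strand counts per 1000000 assigned counts (CPM), which makes 1 count worth 0.191 CPM in replicate 2 and 0.203 CPM in replicate 1. Where no read was counted, the level may still reach that of 3 counts, which is 0.574 CPM in replicate 2 and 0.608 CPM in replicate 1. These limits and the 95% intervals below cover counting error only, and the sources mention no molecular identifiers. A small-RNA read spans a whole mature miRNA, so counts were not divided by hairpin length, and ligation bias can enter any difference between genes. Of the heart muscle markers, Mir499 averaged 2846 ± 124 CPM and Mir208a 2462 ± 1556 CPM (SD, n = 2). The Mir1a and Mir133 genes, which also mark heart muscle but share sequence with other loci, were low, led by Mir1a-2 at 34.4 CPM in replicate 2 against 41.2 CPM in replicate 1.

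Counted from reads placed at 1 locus, Mir126a was among the most abundant miRNA genes of both hearts. It had 363065 counts in replicate 2 and 278061 counts in replicate 1. That is 6.94% of assigned counts in replicate 2 (6.92 to 6.96%, Clopper-Pearson) and, in replicate 1, 5.64% (5.62 to 5.66%), with a mean level of 62907 ± 9214 CPM (SD, n = 2). Against all reads of the library, which include reads placed at several loci and unmapped reads, Mir126a held 2.53% in replicate 2 and 2.10% in replicate 1. In whole tissue, a level cannot tell the number of endothelial cells from the amount of miRNA in each.

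The order of genes leaves out reads placed at several loci, 37.4% of reads in replicate 2 and 41.6% in replicate 1. Genes that share sequence with other loci, such as the Mir1a genes, may therefore rank too low. By mean level Mir126a was the fourth of the 2202 genes, and it was the third in replicate 2 and the fourth in replicate 1. The genes above it by mean were Mir378a (172355 ± 4608 CPM), which lies in an intron of the energy metabolism coactivator gene Ppargc1b, and Mirlet7i (93711 ± 7856 CPM) and Mirlet7g (65188 ± 1327 CPM), members of the let-7 family, which rises as cells differentiate. Those below it were Mirlet7b (57678 ± 5280 CPM), Mir23b (49050 ± 10242 CPM) and Mirlet7d (47288 ± 4775 CPM). The order around Mir126a was not the same in both hearts. In replicate 2, Mir126a counts were 1.05 times those of Mirlet7g (interval 1.04 to 1.05), and in replicate 1 they were 0.878 times (0.873 to 0.882). Mir126a exceeded Mirlet7b in both, by 1.13 times in replicate 2 (1.13 to 1.14) and 1.05 times in replicate 1 (1.04 to 1.05). Against Mir23b, the ratio was 1.66 in replicate 2 (1.65 to 1.67) but 1.00 in replicate 1 (0.997 to 1.01), where the 2 genes were within counting error. Within each heart, Mir378a and Mirlet7i were above Mir126a and Mirlet7b was below it, while the order against Mirlet7g changed. The differences of the means from Mirlet7g and Mirlet7b are smaller than the SD of Mir126a between the hearts.

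Mir126b was at the limit of detection. It had 3 counts in replicate 2 and 3 counts in replicate 1, or 0.574 CPM in replicate 2 (exact Poisson interval 0.118 to 1.68) and 0.608 CPM in replicate 1 (0.125 to 1.78). By mean level, 507 listed genes were above it, and 81 genes had 1 to 3 counts in both libraries. With fewer than 10 counts it was not among the 356 genes called detected, those with at least 10 counts in both libraries. There were 121022 counts of Mir126a for each count of Mir126b in replicate 2 (exact interval 41411 to 586848) and 92687 in replicate 1 (31716 to 449451). No difference in the odds of Mir126b over Mir126a was detectable between the libraries with 3 counts in each (odds ratio 0.766 for replicate 2 over replicate 1, Fisher's exact test, two-sided p = 1).

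The other count columns show how far the pair depends on strand. On the opposite strand of Mir126a, 3 counts were listed in replicate 2 and 3 in replicate 1, the same numbers as the own-strand counts of Mir126b. On the opposite strand of Mir126b, 363048 counts were listed in replicate 2 and 278048 in replicate 1. These fall short of the own-strand counts of Mir126a by 17 in replicate 2 and 13 in replicate 1. With strand ignored, Mir126a was listed at exactly these 17 and 13 counts, and Mir126b at 0 in both. The tally of ambiguous reads that replaces them when strand is ignored was 1438359 in replicate 2 and 1342888 in replicate 1. The Mir126 pair accounted for 363051 of these reads (25.2%) in replicate 2 and 278051 (20.7%) in replicate 1. The strand-ignoring column thus lists near 0 a gene that was among the most abundant by own-strand counts.

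**Figure D2:**
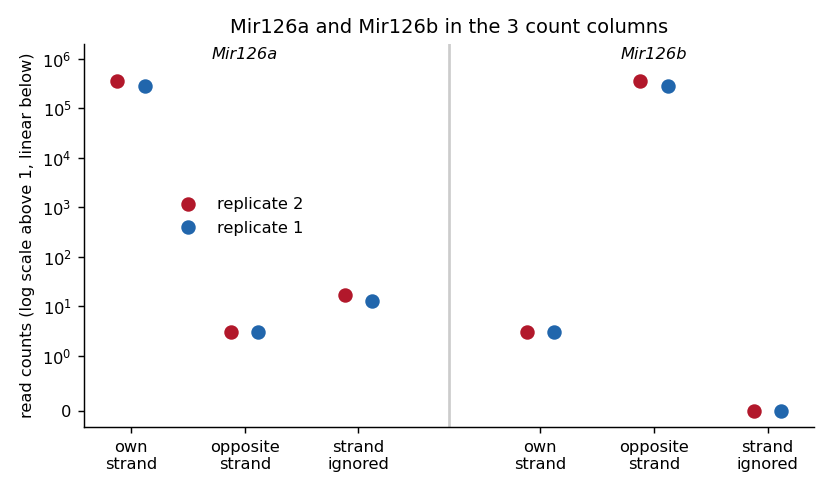
Read counts of Mir126a and Mir126b in the own-strand, opposite-strand and strand-ignoring columns, 1 point per library; the y axis is logarithmic above 1 count and linear below. Mir126a holds 363065 and 278061 own-strand counts and 17 and 13 counts when strand is ignored, and the opposite-strand column of Mir126b mirrors the own-strand column of Mir126a.

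Whether the 3 Mir126b counts exceed what the empty strand of other miRNA genes holds was compared within each library. The 2138 genes that overlap no miRNA gene on the opposite strand held 130 opposite-strand counts beside 3791442 own-strand counts in replicate 2, a share of 34.3 per 1000000 (interval 28.6 to 40.7). In replicate 1 they held 125 beside 3587945, a share of 34.8 per 1000000 (29.0 to 41.5). Mir126b made up 8.26 per 1000000 of its pair in replicate 2 (1.70 to 24.1) and 10.8 per 1000000 in replicate 1 (2.22 to 31.5). The Mir126b share was lower than that of these genes in both libraries (replicate 2: odds ratio 0.241, Fisher's exact test, two-sided p = 0.00497; replicate 1: odds ratio 0.310, p = 0.0372). These tests compare reads within a library, not animals. The comparison depended on a few genes, since Mir122, the liver miRNA, alone held 53 and 46 of the opposite-strand counts in replicates 2 and 1. Without Mir122, 77 opposite-strand counts stood beside 3791358 own-strand counts in replicate 2, and 79 beside 3587819 in replicate 1. Mir122 thus held a large part of the opposite-strand counts but very few of the own-strand counts. Without Mir122, the odds ratio was 0.407 (Fisher's exact test, p = 0.161) in replicate 2 and 0.490 (p = 0.285) in replicate 1. Among the 97 such genes with at least 1000 own-strand counts in both libraries, the share was 7.24 per 1000000 in replicate 2 (4.77 to 10.5) and 6.81 per 1000000 in replicate 1 (4.37 to 10.1). Against these abundant genes, the odds ratio was 1.14 (Fisher's exact test, p = 0.746) in replicate 2 and 1.58 (p = 0.445) in replicate 1, with the Mir126b share slightly above theirs. The opposite-strand counts of these 97 genes, 27 in replicate 2 and 24 in replicate 1, came from only 7 and 3 of them. Most of these genes held none, so the pooled share is not that of a typical gene. Against the pooled share of abundant genes with no annotated partner, that of Mir126b was thus not distinguishable at this depth.

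Single genes varied more widely than these pooled shares. Mirlet7b, an abundant gene without a partner, had 5 opposite-strand counts beside 321168 own-strand counts in replicate 2 and 4 beside 265990 in replicate 1. Of the 31 genes without a partner and with at least 10000 own-strand counts in both libraries, 29 had 0 opposite-strand counts in both, among them Mirlet7i and Mirlet7g, and the other two were Mirlet7b and Mir130a. Mir130a, known from vessel growth, had 6 opposite-strand counts beside 14389 in replicate 2 and 8 beside 22180 in replicate 1. Both the presence of 3 counts in Mir126b and the absence of counts at most other abundant genes were seen in both hearts. Most of the 29 genes had far fewer own-strand counts than Mir126a, such as Mir155 with 14388 in replicate 2 and 13642 in replicate 1. At that depth, 0 counts cannot be read as a share below that of Mir126b. Mirlet7i, with 461043 own-strand counts in replicate 2 and 489466 in replicate 1, was deeper than Mir126a.

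Annotated pairs on opposite strands were compared next, to place the imbalance of the Mir126 pair. The 64 genes that overlap in this way form 32 pairs, and the higher gene was detected in 25 of them. The lower gene had 0 counts in both libraries in 16 pairs, was detected in 3, and lay between in 6, of which Mir126b is one. By counts Mir126a was the second of the 25 higher genes in both libraries, after Mir378a. The Mir378a pair had 918427 and 0 counts in replicate 2 and 833793 and 4 in replicate 1, and was the only one with more counts than the Mir126 pair. At the other end, Mir3107 held 5.09% of the pair with Mir486, a miRNA of red blood cells and muscle, in replicate 2 and 4.73% in replicate 1. Mir3074-1 held 15.4% of its pair with Mir24-1 in replicate 2 and 34.8% in replicate 1. Mir3065 held 1.03% and 2.18% of its pair with Mir338 in the same libraries. These shares rest only on reads placed at 1 locus. Reads that fit both strands of a pair, or another copy of a gene, are in no gene's count. How far such reads would change the balance of these pairs was not tested. Mir126b held 0.000826% of its pair in replicate 2 and 0.00108% in replicate 1, which was below 5 pairs and above 17 in both libraries. The 16 pairs at 0 in both libraries are too shallow for that order to be read as a lower share. The deepest of these was that of Mir191 in replicate 2, where 0 counts allow up to 0.00503% on the lower strand, and that of Mir451a in replicate 1, where 0 counts allow up to 0.00312%. Only the Mir378a pair was deep enough for a share below that of Mir126b to be seen. Its exact intervals were 0 to 0.000402% in replicate 2 and 0.000131 to 0.00123% in replicate 1. Those of Mir126b, 0.000170 to 0.00241% and 0.000222 to 0.00315%, overlapped them, so the order of the 2 pairs was not resolved.

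**Figure D3:**
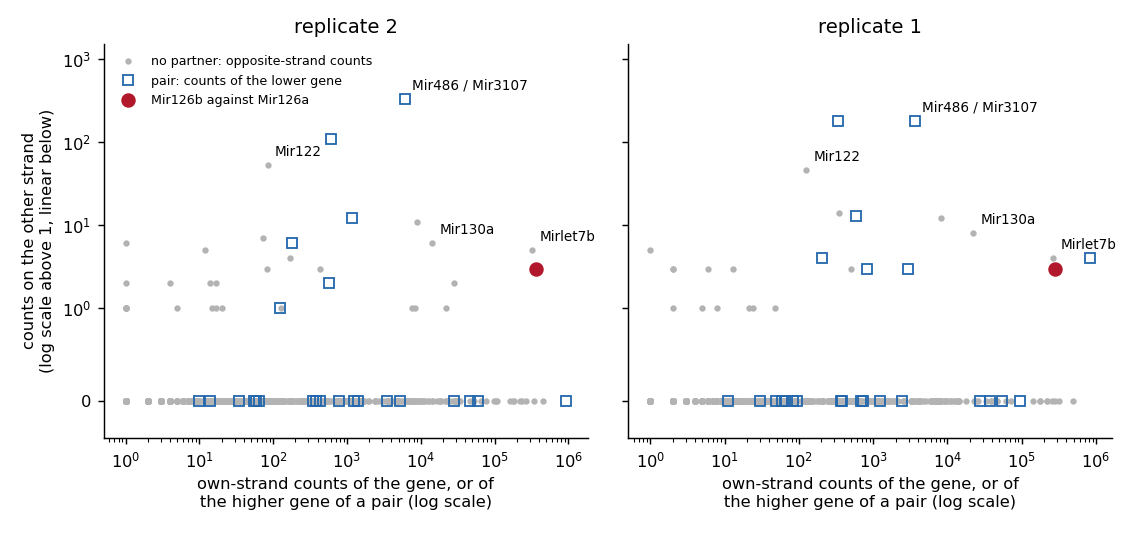
Counts on the other strand against own-strand counts in replicate 2 (left) and replicate 1 (right). Grey points are genes without a partner, blue squares are the lower gene of each opposite-strand pair, and the red point is Mir126b against Mir126a; both axes are logarithmic, the y axis linear below 1. Mir126b lies at 3 counts in both libraries, beside Mirlet7b with 5 and 4 counts.

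Between the 2 hearts, Mir126a was higher in replicate 2. Its 69422 CPM in replicate 2 and 56392 CPM in replicate 1 gave a ratio of 1.23 (exact interval 1.22 to 1.24), a log2 ratio of 0.30. By the exact conditional binomial test with Benjamini-Hochberg adjustment over the 356 detected genes, Mir126a was called higher in replicate 2, with a p-value too small for double precision, listed as 0. The test covers counting error only, compares 2 libraries, and called 226 of the 356 detected genes (63.5%), of which 117 (32.9% of detected genes) were higher in replicate 2. The log2 ratio of 0.30 is small beside the SD of 0.86 over detected genes, and 221 detected genes (62.1%) had a larger absolute ratio. Among the 20 most abundant genes, 11 had a larger absolute ratio than Mir126a. Mir126b was not tested across genes, and its 3 counts against 3 gave an unadjusted p of 1 by the exact test. The red blood cell genes Mir451a and Mir144 moved far more, together 0.116% of assigned counts in replicate 2 and 2.18% in replicate 1. With both taken out of the totals, a step chosen after seeing the data, the log2 ratio of Mir126a was 0.27. Their part in other differences between the hearts was not tested.

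The 5 detected genes nearest to Mir126a in both libraries, by the Euclidean distance between log2 CPM values, were Mirlet7b (0.19), Mirlet7g (0.20), Mirlet7d (0.58), Mir23b (0.73) and Mirlet7i (0.89). With 2 libraries this likeness is mostly one of level. For Mir126b the nearest detected gene was Gm23634, 2.24 log2 units away with 10 counts in both libraries. The minimum of 10 counts sets that distance, so it says nothing of which genes are like Mir126b.

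The endothelial list has 6 members, of which 5 were detected and Mir126b was not. All 5 detected members were called different between the hearts, 4 higher in replicate 2 and 1 lower. Of all detected genes, 63.5% were called and 32.9% were higher in replicate 2. The test covers counting error only, so deep genes are called more often in any list. With a minimum of 100 counts, 180 of 222 genes were called. The lowest of the 5, Mir222, had 1185 counts in replicate 2 and 347 in replicate 1. The median log2 ratio of the 5 detected members, 0.30, is the value of Mir126a itself. Without Mir126a the median was 0.46 over 4 genes, against 0.02 over all detected genes. Mir126a made up 94.5% of the list's counts in replicate 2 and 94.1% in replicate 1. The list held 7.35% of assigned counts in replicate 2 and 5.99% in replicate 1, a mean of 6.67 ± 0.957%, but without Mir126a only 0.380 ± 0.0358% (SD, n = 2).

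The other vascular genes did not keep a fixed ratio to Mir126a. Mir221 and Mir222, neighbours on the X chromosome that act on vessel growth and smooth muscle, were higher in replicate 2 by more than Mir126a. Mir221 was at 2368 CPM in replicate 2 against 1335 CPM in replicate 1 (log2 ratio 0.83), and Mir222 at 227 CPM and 70.4 CPM (log2 ratio 1.69). For each Mir221 count there were 29.3 counts of Mir126a in replicate 2 (exact interval 28.8 to 29.8) and 42.2 in replicate 1 (41.2 to 43.3). Mir10a, of the Hoxb cluster, went the other way, with 896 CPM in replicate 2 and 1615 CPM in replicate 1 (log2 ratio -0.85). Its Hoxd-cluster relative Mir10b had 556 CPM in replicate 2 and, in replicate 1, 521 CPM (log2 ratio 0.09, Benjamini-Hochberg adjusted p = 0.0284 by the exact binomial test). There were 77.5 counts of Mir126a for each count of Mir10a in replicate 2 and 34.9 in replicate 1, and for Mir10b 125 and 108. The 2 hearts thus differed in the balance of these 5 genes by more than counting error.

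Mir143, the smooth muscle miRNA, stayed closest to Mir126a among the abundant vascular genes. It had 34638 CPM in replicate 2 against 28767 CPM in replicate 1, a log2 ratio of 0.27. There were 2.00 counts of Mir126a for each Mir143 count in replicate 2 (exact interval 1.99 to 2.02) and 1.96 in replicate 1 (1.95 to 1.97). Mir145a, its neighbour in the genome, had a log2 ratio of 0.52. The smooth muscle and fibroblast list had 4 of 5 detected members higher in replicate 2 and 1 not called, where 32.9% of all detected genes were higher and 63.5% were called. Mir21a, an injury and fibrosis miRNA, had a log2 ratio of 1.79 and Mir214 had 1.16. The sixth member of the list, Mir199a-1, was at 0 counts in both, and Mir199a-2 had 50 counts in replicate 2 and 42 in replicate 1. Reads that fit both of these genes are in neither count, so their levels are uncertain.

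**Figure D4:**
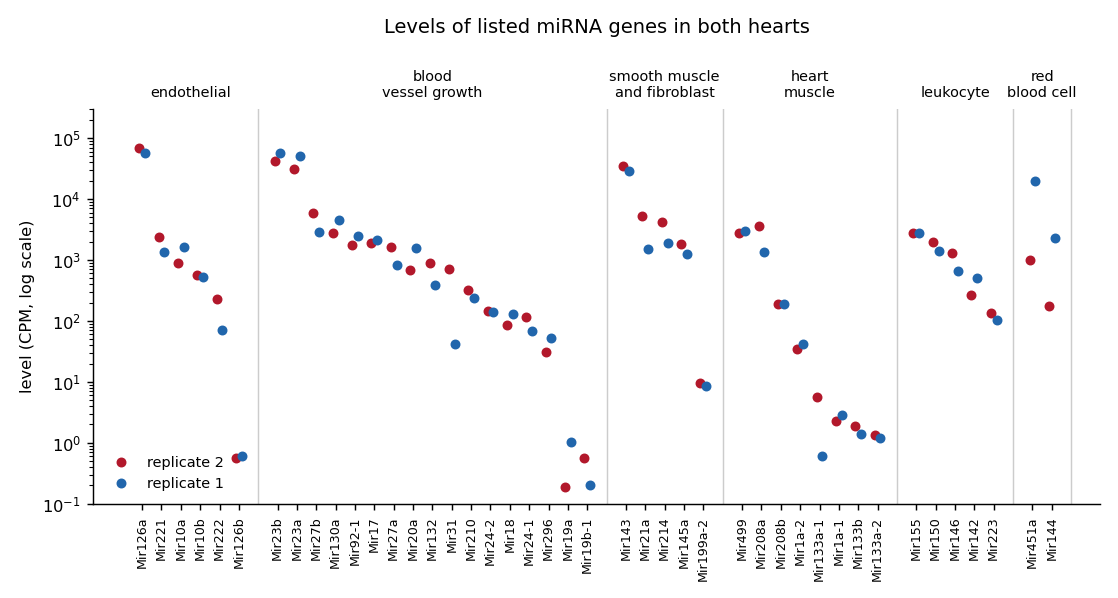
Level in CPM (log axis) of the members of 6 gene lists, with replicate 2 and replicate 1 side by side for each gene and genes in order of mean level within a list. Mir126a tops the endothelial list at 69422 and 56392 CPM and Mir126b closes it at 0.574 and 0.608 CPM; Mir199a-1, at 0 counts, is not drawn.

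Among 17 genes known from blood vessel growth, 15 were detected, 6 higher and 8 lower in replicate 2 and 1 not called, with a median log2 ratio of -0.18. The share called over all detected genes was 63.5%, with 32.9% higher in replicate 2. Of the 3 most abundant members, Mir27b was higher, at 5788 CPM in replicate 2 and 2858 CPM in replicate 1. Mir23a was lower, at 30701 CPM in replicate 2 against 50994 CPM in replicate 1, as was Mir23b, at 41808 CPM in replicate 2 against 56293 CPM in replicate 1. Mir126a stood at 2.26 times Mir23a in replicate 2 and 1.11 times in replicate 1. The mature miRNAs of Mir23a and Mir23b are nearly identical, so their counts are uncertain. Mir126a and the genes known from vessel growth thus did not differ in 1 direction between these hearts.

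Markers of other cell types differed unevenly between the hearts. The heart muscle list held 0.656% of assigned counts in replicate 2 and 0.453% in replicate 1, where 5 of 8 members were detected, 1 higher (Mir208a, log2 ratio 1.39), 1 lower (Mir499, -0.09) and 3 not called. Mir208a alone, at 3562 CPM in replicate 2 against 1361 CPM in replicate 1, differed by more than the whole list, and Mir208b had a log2 ratio of 0.0085 and was not called. The leukocyte list held 0.644% in replicate 2 and 0.544% in replicate 1, with 3 of 5 detected members higher, 1 lower and 1, Mir155, not called (log2 ratio -0.0081). Of all detected genes, 63.5% were called and 32.9% were higher in replicate 2. There were 25.2 counts of Mir126a for each Mir499 count in replicate 2 and 19.2 in replicate 1, and for the leukocyte gene Mir155 25.2 and 20.4. Differences in cell content between the hearts and differences between library preparations cannot be told apart with 1 library from each.

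**Figure D5:**
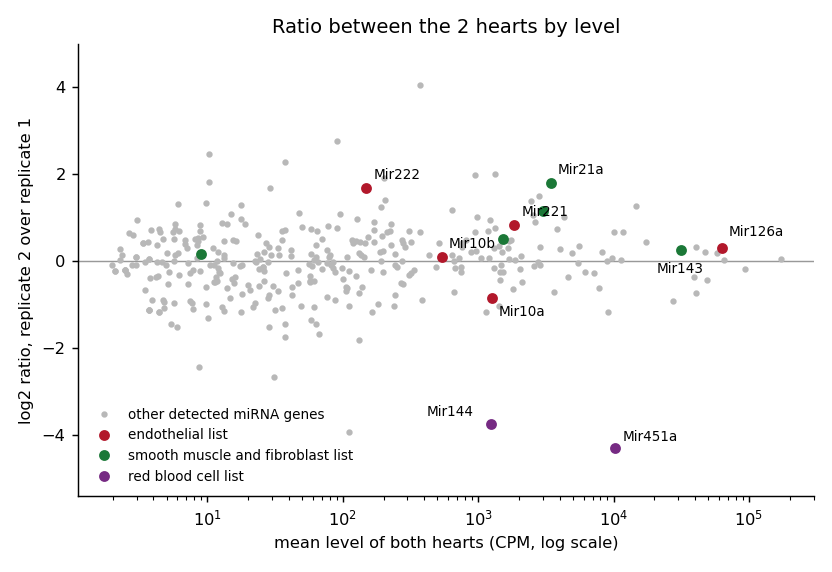
Log2 ratio of replicate 2 over replicate 1 against the mean level in CPM (log axis) for the 356 detected genes, with 3 lists coloured. Mir126a lies at 0.30 beside Mir143 at 0.27, between Mir222 at 1.69 and Mir10a at -0.85, while Mir451a lies at -4.30 and Mir144 at -3.73; Mir126b is not drawn because it was not detected.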

How the data were processed

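The deposited values are raw read counts per miRNA gene from 2 libraries, with 3 columns (strand ignored, own strand, opposite strand), made by the authors on mm10 with GENCODE M21, per the text files that accompany the tables. Neither aligner nor counter is named: not given in the sources used here. CAST reads were counted against the C57BL/6J build.

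All 2202 identifiers matched GENCODE M21. Own-strand counts were scaled to CPM, with 0.5 counts added before log2. The libraries were compared by a two-sided exact conditional binomial test across all detected genes (at least 10 counts in both), with Benjamini-Hochberg adjustment at 0.05, since 1 group leaves no contrast for edgeR's quasi-likelihood test. The binomial test was also run on simulated counts with set changes and counting error only. These held no spread between animals, so that run says nothing of such spread. Shares have exact Clopper-Pearson intervals (SciPy 1.17.1). TMM (edgeR 4.0.16) and DESeq2 1.42.0 size factors were alternatives. Hairpins were folded with RNAfold 2.7.2. The 5 nearest genes by distance, the 3 above and below Mir126a by level, list members and partners of other pairs were named by rule; Mir122, Mir130a and Mir145a were named after their values were seen. Members and lists were chosen with earlier results of these data known; Mir18a, Mir92a-1 and Mir146a are listed as Mir18, Mir92-1 and Mir146.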

Additional observations from a re-analysis of the deposited data

How the results depend on the processing

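The log2 ratio of Mir126a kept its sign and its call under every scaling, filter and pseudocount tried, between 0.25 (TMM) and 0.32 (total without Mir126a, added after seeing the data). With 1 library left out, the Mir126a level was 56392 to 69422 CPM, that of Mir126b 0.574 to 0.608 CPM, the Mir126b share of its pair 8.26 to 10.8 per 1000000, the opposite-strand share 34.3 to 34.8 per 1000000 and the endothelial share 5.99 to 7.35%. Scaled to all reads, Mir126a was at 23162 and Mir126b at 0.218 per 1000000 reads, and scaled to reads placed at 1 locus Mir126b was at 0.508. In the strand-ignoring column Mir126a was at 4.05 CPM and Mir126b at 0, and in the opposite-strand column at 2.16 and 229707 CPM. The opposite-strand share at genes without a partner, 34.6 per 1000000 on average, was 7.03 at genes with at least 1000 own-strand counts and 21.2 without Mir122. The odds ratio of the Mir126b share against it turned above 1 at those abundant genes (1.14 in replicate 2, 1.58 in replicate 1), and lost its call without Mir122 (0.407 and 0.490). Without Mir126a the endothelial list held 0.380%. Of 356 detected genes, 226 were called, against 221 with TMM and 220 with DESeq2 size factors. Other filters changed the genes tested and called 180 of 222 (at least 100 counts), 237 of 594 (at least 1 count) and 217 of 2202 (no filter). No log2 ratio is given for Mir126b, at the limit of 3 counts in both libraries, and its exact p stayed at 1 under each scaling and filter. No ratio between the hearts exists with 1 library left out. No paired analysis was possible because there is only 1 group.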
